A study of Mus musculus with 10 samples.

Results

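Single cells of a newly derived mouse line of polar-like trophoblast stem cells (pTSC), grown in LT21 medium, were compared with single cells of the established trophoblast stem cell (TSC) line F4, grown in Tx medium. The comparison took 1 plate of 384 wells for each line and kept the wells that held at least 2000 unique molecular identifiers (UMIs, each standing for 1 captured RNA molecule) outside mitochondrial genes. This left 299 pTSC wells and 318 TSC wells, together 617 of the 1192 wells that passed the same filter on all 4 single-cell plates of the series. The other plates held F4 cells taken through differentiation for 6 days without FGF4, TGF-beta and heparin (318 wells), and cells of another polar line, pTS1, sorted back out of blastoids, which are embryo-like structures grown in culture (257 wells). Both are used here only for levels side by side. All 4 groups carry the C57BL/6J background and a GFP cassette integrated at random. The labels do not state what LT21 contains, and each group is 1 line on 1 plate. Line, medium, derivation and plate therefore cannot be told apart in any difference given here, and no difference has a replicate check or a p-value.

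Trophoblast stem cells are the culture counterpart of the extraembryonic lineage that builds the placenta. In the blastocyst the trophectoderm has a polar part, which lies over the epiblast and receives FGF4 from it, and a mural part, which stops dividing and becomes giant cells. FGF binding to its receptors activates RAS and the kinase ERK, and ERK switches on both growth genes and its own brakes, the Sprouty, Spred and dual-specificity phosphatase proteins. Stem cells in culture need this signal and an activin or TGF-beta signal, and without them they turn into giant cells, spongiotrophoblast and syncytiotrophoblast.

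The TSC plate was read more deeply, with 5388767 UMIs and a median of 15091 per well, than the pTSC plate, with 2437481 UMIs and a median of 6844. Mitochondrial genes took 15.1% of all pTSC UMIs and 13.8% of all TSC UMIs. Levels are therefore given as counts per 1000000 UMIs (CPM), the UMIs of a gene summed over the wells of a plate and divided by the non-mitochondrial total of that plate. The 95% interval beside a ratio covers the error of counting UMIs in these wells only, not the spread between cultures. Trophoblast markers were present on both sides: the T-box factor Eomes stood at 581 CPM in pTSC and 377 in TSC, Cdx2 at 54.6 and 49.9, and Gata3 at 433 and 487. Lower in pTSC were also Sox2 at 573 and 760, Elf5 at 17.2 and 37.9, and the sparse Tfap2c at 4.51 and 7.05. The keratins Krt8 and Krt18 were higher, at 882 and 350 CPM and at 2430 and 1280. The epiblast marker Pou5f1 had 1 UMI on the pTSC plate and 3 on the TSC plate, while Zfp42, which trophoblast also uses, had 267 and 518. The 5 primitive endoderm markers summed to 22 UMIs (9.03 CPM) in pTSC and 20 UMIs (3.71 CPM) in TSC. The 7 fibroblast markers summed to 45.9 CPM and 10.4 CPM, with 91 of the 112 pTSC UMIs on the surface protein Thy1. On the differentiated plate 5 Y-linked genes held 226 UMIs against 0 on the TSC plate, although both are labelled F4.

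Of 10446 genes with at least 10 UMIs over both plates, leaving out symbols of Gm and digits or ending in -ps or -rs, 1260 (12.1%) were at least 2-fold higher in the pTSC plate and 1520 (14.6%) at least 2-fold lower. The median log2 ratio of all measured genes was -0.11. Against that background the FGF and ERK genes and the Hox genes of clusters C and D stood high in pTSC, and interferon response genes, ectoplacental cone genes and the Meg3 domain stood low. The lists in the plot of members by list range from a median of -2.47 (interferon response) to 1.95 (Hox genes and cofactors).

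**Figure D1:**
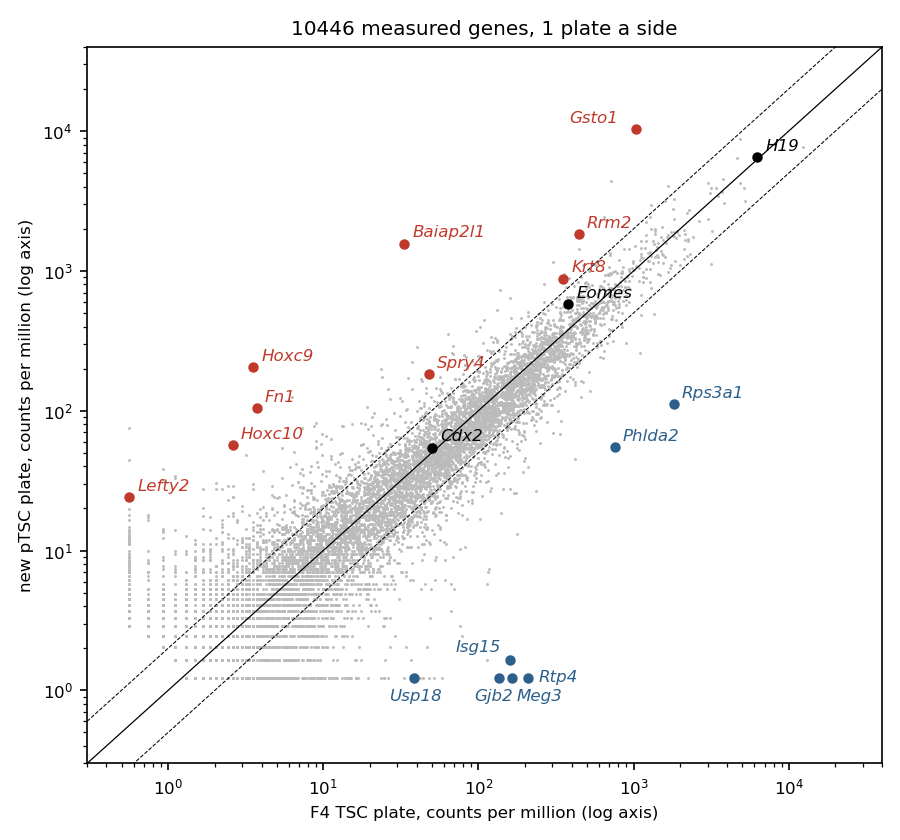
CPM of each of 10446 measured genes on the F4 TSC plate (horizontal, log axis) and the new pTSC plate (vertical, log axis), where values under 3 counts are drawn at 3 counts, the solid line marks equal levels and the dashed lines a 2-fold difference. Hoxc9 and Fn1 lie far above the upper dashed line, Isg15, Rtp4 and Meg3 far below the lower one, and Cdx2, Eomes and H19 between them.

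**Figure D2:**
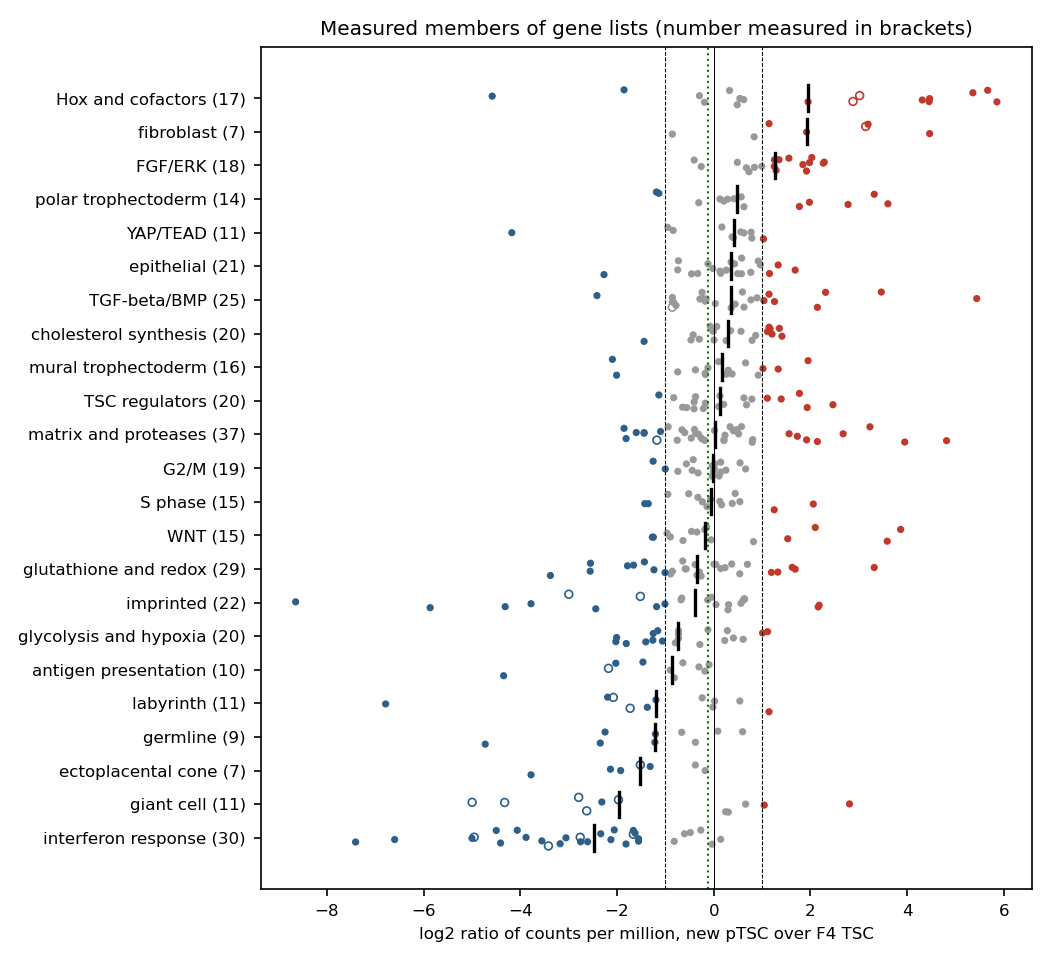
Log2 ratio (new pTSC over F4 TSC, horizontal) of each measured member of 23 gene lists, with the number measured in brackets. Black bars are list medians, red and blue points are at least 2-fold higher or lower, open circles had no count on 1 plate and are drawn at the limit that 3 counts give, and the green dotted line is the median of all measured genes at -0.11.

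Of 18 measured genes of the FGF and ERK list, 11 were at least 2-fold higher in pTSC and 0 at least 2-fold lower, where the background is 12.1% and 14.6%. The list median was 1.27 on the log2 scale. Among the receptors, Fgfr4 stood at 243 CPM in pTSC, 82.8 in TSC, 47.5 in the blastoid pTSC plate and 21.5 in the differentiated plate, a ratio of pTSC to TSC of 2.94 (95% interval 2.60 to 3.33). Fgfr2, the receptor best known in trophoblast stem cells, did not share this and stood at 33.6 and 44.5 CPM. Fgfr1 was sparse, with 27 and 25 UMIs, or 11.1 and 4.64 CPM (2.39-fold, 1.33 to 4.29).

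The feedback inhibitors made up most of the rest. Spry4, which blocks the path from receptor to RAS, stood at 182 CPM in pTSC, 48.1 in TSC, 13.0 in the blastoid plate and 29.8 in the differentiated plate (3.78-fold, 3.24 to 4.43). Spry2 stood at 124 CPM against 31.4 (3.95-fold, 3.26 to 4.80). All 3 Spred genes, which hold back RAF activation, were higher, from Spred2 at 1.99-fold (1.81 to 2.20) to Spred3 at 4.81-fold (3.35 to 7.01). The ERK phosphatases differed among themselves: the ratio was 2.45 for Dusp6, 1.79 for Dusp4 and 1.40 for Dusp5. In each of these 8 inhibitor genes the pTSC plate was the highest of the 4.

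Of the 6 measured ERK targets 4 were at least 2-fold higher and 0 lower (background 12.1% and 14.6%), with a median of 1.6. For the feedback inhibitors 5 of 9 were higher and 0 lower, with a median of 1.25. Phlda1 stood at 442 CPM in pTSC, 108 in TSC, 55.7 in the blastoid plate and 334 in the differentiated plate (4.08-fold, 3.69 to 4.52). Epha2, an ephrin receptor, stood at 126 CPM against 49.4, and the AP-1 factor Fosl1 at 106 against 63.8. The cyclin gene Ccnd1 stood at 48.0 CPM against 9.84 (4.88-fold, 3.50 to 6.89). Ier3 lay within 2-fold, at 176 CPM against 210. From another list, the immediate early genes Fos and Fosb stood lower in pTSC, at 225 against 432 CPM and 41.4 against 108, whereas Junb stood higher, at 462 against 188.

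These differences were spread over the wells. With every well thinned to 2000 UMIs, the whole FGF and ERK list gave a median of 5 UMIs per pTSC well and 2 per TSC well, and it gave at least 1 UMI in 96.7% of pTSC wells and 83.0% of TSC wells. The median was 1 in the blastoid wells and 2 in the differentiated wells. Spry4 was seen in 23.7% (19 to 29.0) of thinned pTSC wells and 6.92% (4.39 to 10.3) of thinned TSC wells. Without thinning the shares were 50.2% and 27.4%.

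**Figure D3:**
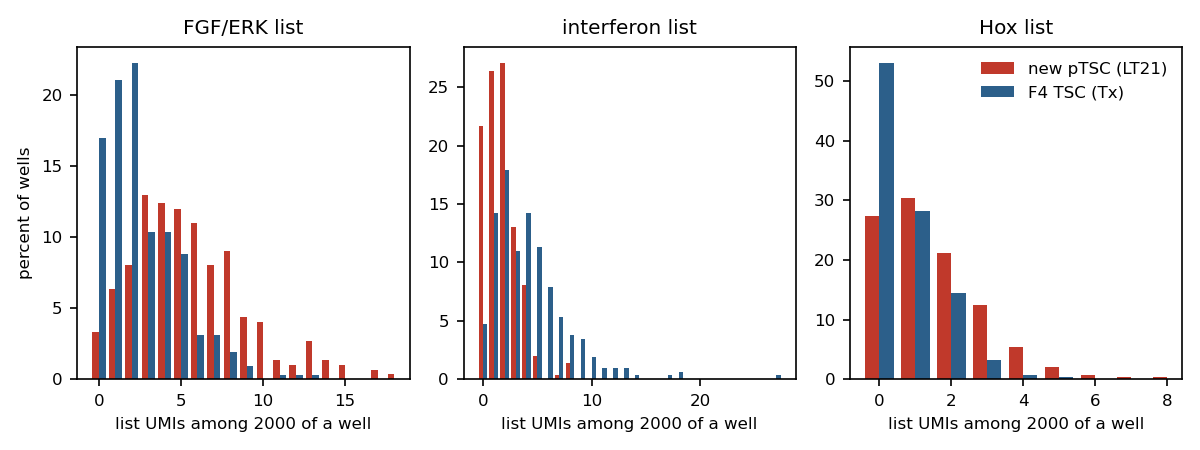
Percent of wells (vertical) by the number of UMIs that the members of a list gave among 2000 UMIs of a well (horizontal), for the new pTSC plate (red, 299 wells) and the F4 TSC plate (blue, 318 wells). The FGF and ERK list is shifted to higher values in pTSC, the interferon list to lower values, and 53.1% of TSC wells but 27.4% of pTSC wells held no UMI of the Hox list, which includes the Hox cofactors.

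Hox genes encode the homeodomain factors that pattern the body axis, and they lie in 4 chromosomal clusters in which neighbours tend to be active together. Of the 6 measured genes of cluster C, 5 were at least 2-fold higher in pTSC (background 12.1%), and the cluster median was 4.46 on the log2 scale. Hoxc9 stood at 205 CPM in pTSC (499 UMIs), 3.53 in TSC (19 UMIs), 31.5 in the blastoid plate and 7.37 in the differentiated plate, a ratio of 58.1 (36.8 to 97.3). Hoxc10 stood at 57.0, 2.60, 10.8 and 11.4 CPM in the same order (21.9-fold, 12.7 to 41.2). Hoxc6 stood at 38.2, 0.928, 1.73 and 4.30 CPM (41.1-fold, 17.0 to 130). Hoxc8 had 40 UMIs in pTSC and 4 in TSC, and Hoxc5 had 10 and 0. The gene at the far end of the cluster, Hoxc13, differed less, at 17.2 CPM against 13.7, and was highest in the differentiated plate at 35.3.

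Outside cluster C the levels were lower. All 3 measured genes of cluster D were at least 2-fold higher (background 12.1%), among them Hoxd9 with 23 UMIs in pTSC and 1 in TSC. Hoxa13, the 1 measured gene of cluster A, had 18 and 2. Cluster B went apart: Hoxb4 had 4 UMIs in pTSC and 32 in TSC, and Hoxb13 stood at 13.1 and 8.54 CPM. Evx1, a homeobox gene next to the Hoxa cluster, had 48 UMIs in pTSC and 3 in TSC (35.4-fold, 11.4 to 178). The list median of 1.95 was 0.54 when 50 UMIs were required of each gene, since most of its members are sparse.

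The cluster C genes were seen in part of the pTSC wells, and at these counts a well without a UMI may still hold the transcript. Whether the level of these genes differed between wells was not tested. Hoxc9 was seen in 29.4% (24.3 to 35.0) of thinned pTSC wells and 0.629% (0.0763 to 2.25) of thinned TSC wells, and without thinning in 54.8% and 3.46%. Of the 88 thinned pTSC wells with Hoxc9, 17.0% (9.87 to 26.6) also showed Hoxc10, against 6.64% (3.67 to 10.9) of the other 211. Hoxc6 was seen in 14.8% (8.11 to 23.9) and 4.74% (2.3 to 8.54) of these wells. For Hoxc10 and for Hoxc6 the intervals overlap at their edges. Gsto1 was seen in 100% of both, and Eomes in 63.6% and 64.5%. Spry4 was seen in 31.8% and 20.4%, and Dusp6 in 53.4% and 43.6%, each also with overlapping intervals. Fn1 was seen in 11.4% and 15.2%, so the wells with Hoxc9 were not those richer in Fn1.

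On the TSC plate these same genes came largely from 1 well. That well, with 43570 UMIs in all, held 12 of the 14 Hoxc10 UMIs, all 5 of Hoxc6, all 4 of Hoxc8 and 9 of the 19 of Hoxc9. It held 2 of the 74 Hoxc13 UMIs, which were spread over 49 wells.

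Fibronectin, encoded by Fn1, is a matrix protein that cells bind through integrins. Fn1 stood at 105 CPM in pTSC, 3.71 in TSC, 12.5 in the blastoid plate and 5.84 in the differentiated plate (28.2-fold, 17.9 to 46.9), and it was seen in 14% of thinned pTSC wells and 0.629% of thinned TSC wells. The rest of the matrix list did not follow it: of 37 measured genes, 8 were at least 2-fold higher and 7 lower, with a median of 0.02 (background 12.1% and 14.6%). The basement membrane collagens Col4a1 and Col4a2 stood at 613 and 613 CPM in pTSC and at 721 and 795 in TSC. Lama5 and Nid2 were lower in pTSC, at 13.9 against 50.5 CPM and 5.33 against 18.7.

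The integrins were split as well. Itga5, whose product is the classical fibronectin receptor subunit, stood at 21.3 CPM against 7.24 (2.95-fold, 1.91 to 4.59). Its partner Itgb1 stood at 965 and 833 CPM. Itgb3, Itgb5 and Itga9 were at least 2-fold lower in pTSC. In the plasminogen system, which dissolves matrix outside cells, the activator Plau had 35 UMIs in pTSC and 5 in TSC (15.5-fold, 6.04 to 50.6). The receptor Plaur stood at 217 and 124 CPM.

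Of 7 measured mesenchymal genes, 5 were at least 2-fold higher in pTSC (background 12.1%), at a summed level of 81.2 CPM against 24.1. Of these Zeb1 was under 2-fold in 3 alternatives, at log2 ratios of 0.77 to 0.94. Thy1 led with 37.3 CPM against 4.08 (9.14-fold, 5.69 to 15.3), in 51 pTSC wells. Vim, the mesenchymal intermediate filament, had 12 UMIs in 5 pTSC wells, 7 of them in 1 well, and 0 in TSC. Cdh2 had 10 UMIs and 1. The collagen gene Col1a1, which fibroblasts make in bulk, had 6 UMIs in pTSC and 24 in TSC, and Col1a2 and Col3a1 had 0 in pTSC. The part of other cell types in the Fn1 level was not tested. Epithelial genes stayed high: Cdh1 stood at 1383 CPM in pTSC and 1502 in TSC.

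Gsto1 encodes a glutathione transferase of the omega class, a detoxifying enzyme. It stood at 10333 CPM in pTSC, 1034 in TSC, 2957 in the blastoid plate and 1201 in the differentiated plate (9.99-fold, 9.71 to 10.3). The gene was seen in every pTSC well and in 307 of 318 TSC wells. The other transferases went the other way or stayed level. Of 12 measured, 6 were at least 2-fold lower, against a background of 14.6%, and Gstk1 was the only other one at least 2-fold higher, at 72.6 CPM against 28.9. Gsta4 stood at 9.03 CPM in pTSC, 52.9 in TSC, 55.7 in the blastoid plate and 13.5 in the differentiated plate. Gstm2 stood at 46.8 CPM against 148.

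The enzymes that use or restore glutathione were also mixed. The peroxidase Gpx1 stood at 813 CPM in pTSC, 264 in TSC, 921 in the blastoid plate and 73.7 in the differentiated plate (3.08-fold, 2.88 to 3.30). Gpx3 and Gpx4 were lower in pTSC, at 190 against 513 CPM and 18.1 against 62.2. Slc7a11, which imports cystine for glutathione synthesis, stood at 66.9 CPM against 20.8, and the stress gene Hmox1 was level at 472 and 471. The oxidase Duox2, which makes hydrogen peroxide, and its maturation factor Duoxa2 were both higher, the latter at 61.1 CPM against 8.91 (6.86-fold, 4.93 to 9.71). Gpx4 and Prdx1, at 2969 against 1298 CPM, share transcript sequence with other genes, so their counts are uncertain.

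The interferon response is a set of antiviral genes that cells switch on through the receptors Ifnar1 and Ifnar2 and factors such as Irf9, which bind the interferon-stimulated response element (ISRE) in promoters. Of 30 measured genes of this list, 24 were at least 2-fold lower in pTSC and 0 higher, where the background is 14.6% and 12.1%, and the list median was -2.47. The promoters of Isg15, Ifit1 and Oas1a, which were lower, and of Bst2, which lay within 2-fold, are shown because each holds the core of that element, written TTTCNNTTTC or, on the other strand, GAAANNGAAA. The lines give the 250 bases before the annotated start, from RefSeq on GRCm38.p6, read 5′ to 3′ along the gene, with every match in capitals.
Isg15 (chr4:156200819-156201068, minus strand): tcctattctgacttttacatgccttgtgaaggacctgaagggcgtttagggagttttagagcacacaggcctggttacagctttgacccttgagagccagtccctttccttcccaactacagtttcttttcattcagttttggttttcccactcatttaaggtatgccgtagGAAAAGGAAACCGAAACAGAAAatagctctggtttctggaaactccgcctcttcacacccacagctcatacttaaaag
Ifit1 (chr19:34640639-34640888, plus strand): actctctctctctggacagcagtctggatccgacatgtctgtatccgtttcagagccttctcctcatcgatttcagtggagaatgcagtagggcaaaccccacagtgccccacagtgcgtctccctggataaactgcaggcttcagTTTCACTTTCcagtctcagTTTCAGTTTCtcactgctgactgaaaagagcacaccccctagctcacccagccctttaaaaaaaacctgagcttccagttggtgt
Oas1a (chr5:120907526-120907775, minus strand): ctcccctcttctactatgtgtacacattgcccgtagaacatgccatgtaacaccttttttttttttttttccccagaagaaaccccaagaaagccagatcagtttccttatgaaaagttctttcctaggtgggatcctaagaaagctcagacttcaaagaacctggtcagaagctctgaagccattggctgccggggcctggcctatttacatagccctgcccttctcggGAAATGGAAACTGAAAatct
Bst2 (chr8:71537473-71537722, minus strand): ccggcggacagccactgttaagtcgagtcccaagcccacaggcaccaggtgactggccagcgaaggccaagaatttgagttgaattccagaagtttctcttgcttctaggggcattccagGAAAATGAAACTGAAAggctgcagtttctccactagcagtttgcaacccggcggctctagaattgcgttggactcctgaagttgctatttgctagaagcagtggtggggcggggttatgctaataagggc

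In Isg15 3 matches overlap in 1 run, in Oas1a and Bst2 2 matches overlap, and in Ifit1 2 matches lie apart. Of the 30 measured genes of the list, 24 had such a window, and 6 of these (25%) held a match in any of their windows. Among all 7621 measured genes with a window the share was 2.78%. Taken singly, 2.98% of all 32851 windows of this length held a match. A match was found in 4 of the 18 genes that were at least 2-fold lower and in 2 of the 6 others. Rtp4 and Usp18 are named without a promoter.

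The effectors carried the largest differences. Rtp4, which is thought to hold back viral replication, stood at 1.23 CPM in pTSC (3 UMIs), 209 in TSC (1128 UMIs), 11.2 in the blastoid plate and 29.2 in the differentiated plate, a ratio of TSC to pTSC of 170 (58.0 to 826). The ubiquitin-like modifier Isg15 stood at 1.64, 159, 3.45 and 8.30 CPM in the same order (97.1-fold, 37.8 to 357). Parp14 stood at 2.46, 78.9, 12.5 and 32.3 CPM (32.0-fold, 14.6 to 87.8). Usp18, which removes Isg15 from proteins, had 0 UMIs in pTSC and 206 in TSC and was at least 31.1-fold lower, setting the 0 at 3 UMIs over the plate. Ifit1 had 0 and 71. The guanylate-binding protein gene Gbp7, outside the list, stood at 1.64 CPM against 114 (69.5-fold, 27.0 to 256).

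Genes of the sensing step were lower too, at smaller counts. The RNA sensor Ddx58 had 5 UMIs in pTSC and 92 in TSC, Ifih1 had 13 and 91, and the master factor Irf7 had 1 and 50. The receptor genes lay within 2-fold, Ifnar2 at 60.7 CPM against 85.0 and Ifnar1 at 8.62 against 7.79. Among abundant members, Ifitm2 was level at 235 and 241 CPM, whereas its neighbour Ifitm3 stood at 69.3 and 303 (4.37-fold lower, 3.73 to 5.15), and the 2 genes share sequence.

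In thinned wells the list gave a median of 2 UMIs per pTSC well and 4 per TSC well, with highest wells of 8 and 27. Isg15 was seen in 0.334% (0.00847 to 1.85) of thinned pTSC wells and 23.6% (19 to 28.6) of thinned TSC wells, so its counts came from many TSC wells. Without thinning it was seen in 3 of 299 and 178 of 318 wells. The TSC plate stood highest of the 4 for Isg15, Rtp4, Usp18, Ifit1, Parp14 and Ifitm3. The summed level of the list was 854 CPM in pTSC, 2310 in TSC, 1070 in the blastoid plate and 852 in the differentiated plate.

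Antigen presentation genes, many of which interferon also raises, followed in part: 4 of 10 measured were at least 2-fold lower and 0 higher (background 14.6% and 12.1%). H2-D1 stood at 491 CPM against 1354 and B2m at 378 against 705. H2-T23 had 2 UMIs in pTSC and 90 in TSC, and the immunoproteasome gene Psmb8 had 0 and 30. H2-D1 and H2-T23 belong to a family of near-identical genes, and their counts are uncertain.

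**Figure D4:**
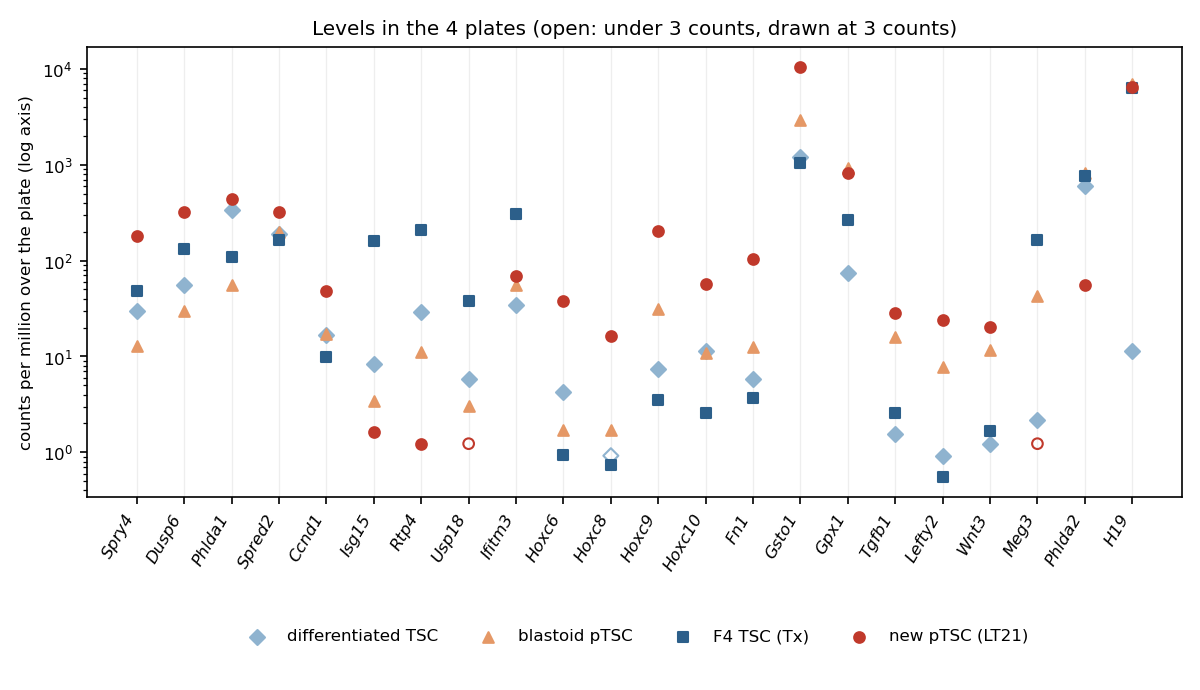
CPM (vertical, log axis) of 22 genes on the new pTSC, F4 TSC, blastoid pTSC and differentiated TSC plates, with values under 3 counts drawn open at 3 counts. Spry4, Hoxc9 and Fn1 are highest in the new pTSC plate, Isg15 and Rtp4 are highest in the F4 TSC plate at 159 and 209, and H19 is at 11.4 in the differentiated plate against 6295 to 6970 in the other 3.

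The transcription factors that hold the stem state were mostly level, and 5 of 20 measured genes of that list were at least 2-fold higher and 1 lower (background 12.1% and 14.6%). The SoxB1 factor Sox3 stood at 258 CPM in pTSC, 67.5 in TSC, 19.9 in the blastoid plate and 7.68 in the differentiated plate (3.82-fold, 3.35 to 4.36). On the TSC plate 31.6% of its UMIs lay in 1 well. Zic2 stood at 65.2 CPM against 30.2. Klf5 stood at 602 against 376 and Tead4 at 192 against 111. Esrrb, a target of FGF signalling in these cells, was sparse on both sides, with 17 UMIs in pTSC and 11 in TSC, or 6.97 and 2.04 CPM (3.42-fold, 1.51 to 8.07). Elf5 was the 1 gene of the list that was at least 2-fold lower, with 42 UMIs and 204. Tfcp2l1, a factor of naive pluripotency held in the STAT3 list, stood at 126 CPM against 457 (3.62-fold lower, 3.21 to 4.09).

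Markers of the polar and the mural trophectoderm did not separate cleanly. Of 14 polar markers, 5 were at least 2-fold higher and 2 lower, where the background is 12.1% higher and 14.6% lower, with a median of 0.49. The higher ones included Gsto1, Duox2, Duoxa2 and Esrrb, and the lower ones were Elf5 and Cited1, at 99.3 CPM against 226. Of 16 mural markers, 3 were higher and 2 lower, with a median of 0.18. The VEGF receptor Flt1 stood at 397 CPM in pTSC, 103 in TSC, 632 in the blastoid plate and 552 in the differentiated plate (3.87-fold, 3.48 to 4.30). Ndrg1 stood at 84.9, 342, 751 and 236 CPM in the same order (4.03-fold lower, 3.49 to 4.67).

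Lists of differentiated trophoblast differed in how far they gave a direction. Of 7 measured ectoplacental cone genes, 5 were at least 2-fold lower in pTSC and 0 higher, where the background is 12.1% higher and 14.6% lower. Their median was -1.52, and -0.85 with a minimum of 1 count per gene. Phlda2, an imprinted brake on placental growth, stood at 55.0 CPM in pTSC, 755 in TSC, 812 in the blastoid plate and 598 in the differentiated plate (13.7-fold, 11.6 to 16.4), and it was seen in 285 of 318 TSC wells. Of 11 measured labyrinth genes 6 were lower and 1 higher. Their median of -1.19 was -0.72 with 50 counts per gene, -0.34 with 1 count and -0.45 without top wells. The connexin Gjb5 stood at 161 CPM against 418 (2.59-fold, 2.33 to 2.89) with 292 TSC wells. Bhlhe40, which the giant cell list holds, went the other way at 283 CPM in pTSC, 40.5 in TSC, 88.9 in the blastoid plate and 274 in the differentiated plate (7.01-fold, 6.01 to 8.20).

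Several of these genes reached their TSC level in 1 well. One TSC well held 617 of the 733 Gjb2 UMIs and 19 of the 28 of Gcm1, the syncytiotrophoblast factor. Without that well the log2 ratio of Gjb2 was -4.14 in place of -6.79, and that of Gcm1 was -0.45 in place of -2.08. Another held 204 of the 212 UMIs of the placental cathepsin Ctsr and 37 of the 41 of Ctsj, and without it Ctsr was at -0.27 in place of -5.00. The WNT inhibitor Dkk1 stood at 30.8 CPM in pTSC and 73.1 in TSC, but 348 of its 394 TSC UMIs lay in 1 well, and without that well its log2 ratio turned from -1.25 to 1.84. That value keeps all pTSC wells, although 36 of the 75 Dkk1 UMIs in pTSC also lay in 1 of 10 wells. The giant cell list had 6 of 11 measured genes lower and 2 higher (background 14.6% and 12.1%), with 5 at 0 in pTSC and a median of -1.97. That median turned to 0.25 when 50 UMIs were required of each gene and was -0.27 when each gene was taken without its top well, so the list gives no direction. Its summed level was 327 CPM in pTSC and 164 in TSC, and it gave a UMI in 40.8% of thinned pTSC wells and 15.7% of thinned TSC wells. Most of that pTSC level was Bhlhe40 alone, at 283 CPM in pTSC and 40.5 in TSC. Bhlhe40 was seen in 37.1% of thinned pTSC wells and 7.55% of thinned TSC wells. Isg15, Rtp4 and Phlda2 did not depend on single wells in this way, with 4.66%, 4.43% and 6.54% of their TSC UMIs in the top well.

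**Figure D5:**
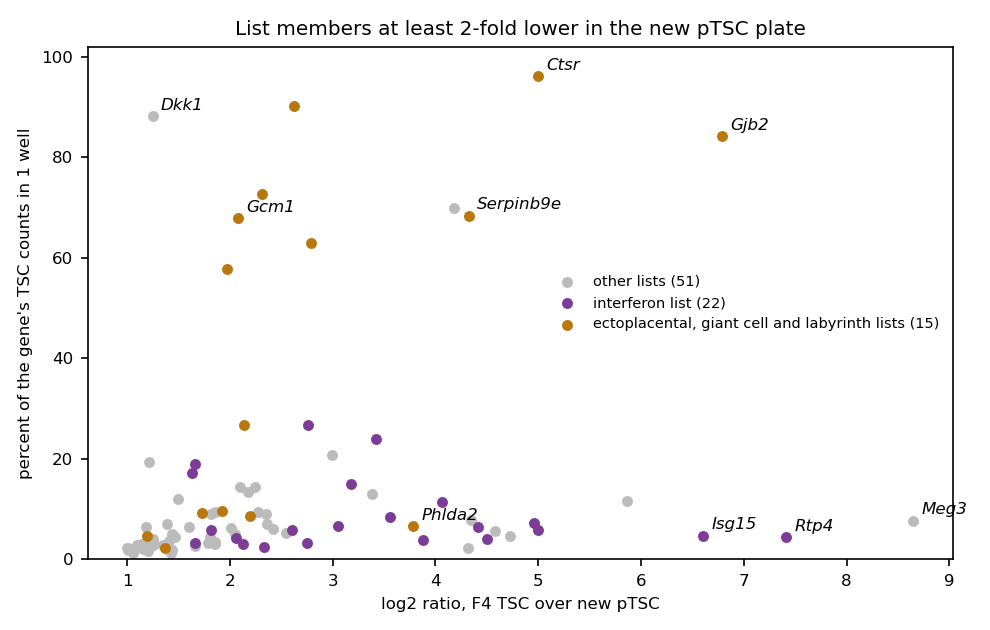
Percent of a gene's TSC UMIs that lay in 1 well (vertical) against its log2 ratio, F4 TSC over new pTSC (horizontal), for list members at least 2-fold lower in the new pTSC plate with at least 20 TSC UMIs. Ctsr, Gjb2, Gcm1, Serpinb9e and Dkk1 lie at 67.9% or more, and the interferon genes lie under 30%.

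Imprinted genes, which are read from 1 parental copy only, differed by locus. Of 22 measured, 2 were at least 2-fold higher and 9 lower, where the background is 12.1% higher and 14.6% lower. The 3 noncoding RNAs named here from the Dlk1 and Meg3 domain on chromosome 12, which the maternal copy makes, were nearly absent from pTSC. Meg3 stood at 0.410 CPM in pTSC (1 UMI), 165 in TSC (888 UMIs), 43.2 in the blastoid plate and 2.15 in the differentiated plate (402-fold, 71.9 to 15883). Rian had 2 UMIs against 258, and Mirg 0 against 53. On the TSC plate Meg3 was seen in 134 of 318 wells, or 42.1%, so many TSC wells also lacked a Meg3 UMI. Ndn, from another imprinted domain, had 3 UMIs in pTSC and 132 in TSC and stood at 2.59 CPM in the blastoid plate and 117 in the differentiated plate. H19 was level at 6506 and 6295 CPM and Peg3 at 1052 and 1084. Plagl1 and Grb10 were higher in pTSC, at 36.5 against 8.17 CPM and 16.0 against 3.53.

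Germline genes whose promoters DNA methylation keeps silent in most cells were at least 2-fold lower in pTSC in 5 of 9 cases and higher in 0 (background 14.6% and 12.1%). Their median of -1.21 was -0.79 without the deepest 5% of wells, -0.66 with 1 count per gene and -0.91 without top wells. Dpep3 stood at 2.87 CPM in pTSC, 76.1 in TSC, 3.89 in the blastoid plate and 2.46 in the differentiated plate (26.5-fold, 12.7 to 66.3). Dazl had 8 UMIs against 90. Tex19.1 was abundant on all plates, at 482, 1112, 628 and 1339 CPM in the same order. Tex13, a testis gene outside the list, had 14 UMIs in pTSC and 613 in TSC.

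Ligands of the TGF-beta and WNT families differed gene by gene. Tgfb1 stood at 28.7 CPM in pTSC, 2.60 in TSC, 16.0 in the blastoid plate and 1.54 in the differentiated plate (11.1-fold, 6.17 to 21.3). Lefty2, an inhibitor that Nodal signalling induces, had 59 UMIs in pTSC and 3 in TSC (43.5-fold, 14.2 to 217), in 27 pTSC wells. Smad7, another feedback inhibitor of the pathway, stood at 496 CPM against 241 (2.05-fold, 1.90 to 2.22), and its ratio was just under 2-fold when the wells of the highest 5% in depth were left out. Bmp7 was lower, with 10 UMIs against 118. Nodal itself was within 2-fold, at 17.6 and 13.7 CPM. Over the TGF-beta and BMP list, 7 of 25 measured genes were at least 2-fold higher and 1 lower (background 12.1% and 14.6%).

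Among the WNT ligands, Wnt3 stood at 20.1 CPM in pTSC, 1.67 in TSC, 11.7 in the blastoid plate and 1.23 in the differentiated plate (12-fold, 5.85 to 27.9). Of 15 measured genes of the WNT list, 4 were at least 2-fold higher and 2 lower (background 12.1% and 14.6%). Wnt10a had 33 UMIs against 5, Wnt4 97 against 50 and Wnt7a 34 against 26, and all 3 were at least 2-fold higher in CPM. Wnt6, with more UMIs than any of these, went the other way at 250 CPM against 466 (1.86-fold lower, 1.70 to 2.04). Areg, a ligand of the EGF receptor, had 44 UMIs in pTSC and 4 in TSC, with 12 of the 44 in 1 well.

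Of 20 measured sterol synthesis genes, 6 were at least 2-fold higher in pTSC and 1 lower, where the background is 12.1% higher and 14.6% lower, and the list median was 0.30. Cyp51, a demethylase of the path, stood at 887 CPM in pTSC, 385 in TSC, 229 in the blastoid plate and 202 in the differentiated plate (2.31-fold, 2.17 to 2.45). Sc5d and Hsd17b7 were 2.56-fold and 2.16-fold higher. The regulator Srebf2 was level at 590 and 601 CPM.

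Of 20 measured genes of glycolysis and the hypoxia response, 8 were at least 2-fold lower and 2 higher, where the background is 12.1% higher and 14.6% lower. Of these, 4 of the lower (Gapdh, Pkm, Aldoa and Bnip3) and both higher (Gpi1 and Eno1) share transcript-end sequence with other genes. The list median was -0.73 with and without such genes. Tpi1 stood at 304 CPM against 679 and Pfkl at 68.5 against 143, while Hk2 was within 2-fold at 186 and 159. Gapdh, Pkm, Pgk1 and Ldha had only 14, 1, 3 and 6 UMIs in pTSC and 82, 9, 11 and 10 in TSC. Between 22.4% and 49.7% of the sequence words at their transcript ends occur in other genes, so these counts do not measure the level of those enzymes.

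Cell cycle genes were close to level as lists, with medians of -0.06 for S phase and -0.01 for G2 and M phase. Single members stood apart. Rrm2, which makes the building blocks of DNA, stood at 1844 CPM in pTSC, 442 in TSC, 1200 in the blastoid plate and 220 in the differentiated plate (4.17-fold, 3.97 to 4.39). Cdt1, which licenses replication origins, stood at 238 CPM against 639 (2.69-fold lower, 2.46 to 2.94), and Mki67 at 270 against 643. The spindle and chromosome genes Top2a and Ube2c stayed within 2-fold.

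Outside the lists, several of the most extreme genes separated the pTSC and blastoid plates from the TSC and differentiated plates. The first pair are different pTSC lines and carry titles that begin with HUB. The second pair are labelled F4 and carry titles that begin with JFA. The kind of line (pTSC or F4) and the prefix therefore cannot be told apart. Baiap2l1 stood at 1566 and 1484 CPM on the HUB plates and at 33.2 and 38.7 on the JFA plates. Rps3a1, a ribosomal protein gene that shares 78.4% of its transcript-end words with other genes, stood at 112 and 160 CPM against 1812 and 1822. Cyp1a2, a drug-metabolising enzyme of liver, had 40 UMIs in 34 pTSC wells and 18 UMIs on the blastoid plate, and 0 on both JFA plates. It was at least 29.5-fold higher in pTSC than in TSC. The labels do not explain the prefix. Some list genes given above, such as Gpx1, Tgfb1, Wnt3 and Rrm2, were likewise higher on both HUB plates than on both JFA plates. Others, such as Spry4 and Fgfr4, were not. Stmn1 had 0 UMIs and Gnpda1 2 UMIs on the TSC plate alone, against 44.3 and 75.1 CPM in pTSC, 64.3 and 98.9 in the blastoid plate and 44.9 and 75.9 in the differentiated plate. Cwc22, a splicing factor gene, had 313 UMIs on the TSC plate and 0 in pTSC, and stood at 0.432 and 0.922 CPM on the other plates.

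Ets1, a transcription factor that ERK can phosphorylate, stood at 126 CPM in pTSC, 6.31 in TSC, 150 in the blastoid plate and 45.5 in the differentiated plate (20-fold, 14 to 29.4). Rgs5, a regulator of G-protein signalling, stood at 34.1, 1.11, 25.5 and 39.6 CPM. The endocytic receptor Lrp2 stood at 48.4, 3.15, 3.89 and 17.5 CPM (15.3-fold, 9.19 to 27.2), and it led the primitive endoderm list. In that list 3 of 6 measured genes were higher and 0 lower (background 12.1% and 14.6%), with a median of 1.34. Of that list Gata6 had 17 UMIs in pTSC and 9 in TSC (4.18-fold, 1.76 to 10.6). Cubn had 8 and 3, but 6 of the 8 lay in 1 pTSC well. Its log2 ratio of 2.56 was 0.57 without that well. The list median was between 0.51 and 0.95 under 6 of the alternatives tried. On the lower side Aldh3b2 had 0 UMIs in pTSC and 280 in TSC, and stood at 17.7 CPM in the blastoid plate and 80.8 in the differentiated plate. The galectin gene Lgals9 had 1 and 179 UMIs.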

How the data were processed

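Sorted single cells were read with CEL-Seq2, which counts UMIs at transcript ends, per the labels' protocols, and the submitters' processing notes list STAR 2.5.3a. The build of the genome and the rules of counting were not given in the sources used here. The deposited tables hold estimated counts of UMIs per gene and well, whole numbers up to 6112. A well was kept if its non-mitochondrial UMIs reached 2000. Symbols of Gm plus digits or ending in -ps or -rs were left out of the measured genes but not of the totals. Counts were summed per plate and scaled to 1000000 per plate, and a ratio carries the exact conditional binomial 95% interval. A count of 0 was set at 3 counts over the plate. A gene was measured with at least 10 counts over both plates and called by size at 2-fold, since 1 plate per group gives no test. Shares of wells were taken after thinning each well to 2000 UMIs at random, with Clopper-Pearson intervals. The intervals of ratios cover the error of counting UMIs only. Those of shares treat the wells of a plate as independent draws, and neither covers the spread between cultures. Doublets were not called. Wells are named by their 384 positions, so plates share well names but no barcodes could be compared. Sequence shared between genes was measured as the percent of 31-base words in the last 400 bases of a gene's GENCODE vM21 transcripts that occur in another gene, for 93.9% of measured genes. A share of 20% or more, a limit chosen after seeing the data, makes a gene's counts uncertain.

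Named genes were the 15 in each direction whose interval limit nearest to 1 was farthest from it, among genes seen in at least 10% of wells of the higher plate. In each of 30 lists the 4 members with the most counts and the 3 with the most extreme limits were added, with 10 fixed genes. Other list members named were chosen after their values were seen. The members and the lists were chosen with earlier results of these data known. The alternatives tried were other minima for wells and genes, other scalings, thinning of the TSC plate and a stricter call. The ratio and interval were tested on simulated data. The bulk libraries, with 6 columns of values, were not analysed here. Python 3.11.15, numpy 2.4.6, pandas 2.3.3, scipy 1.17.1 and matplotlib 3.10.9 were used.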

Additional observations from a re-analysis of the deposited data

Results flagged for a closer look

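Entries left out of the measured genes by symbol, most of them numbered Gm loci, carried a signal of their own. Of 1624 such entries with at least 10 counts, 53.3% were at least 2-fold higher in pTSC and 9.36% lower, against 12.1% and 14.6% of the measured genes. They took 6.16% of pTSC UMIs and 6.06% of blastoid UMIs, and 3.71% of TSC UMIs and 2.66% of differentiated UMIs.

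The differentiated plate, which enters no ratio, held 226 UMIs of 5 Y-linked genes against 0 on the TSC plate, and Xist stood at 4.30 CPM there against 281 on the TSC plate and 194 in pTSC. Both plates are labelled F4.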

How the results depend on the processing

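The 1260 genes higher and 1520 lower became 413 and 381 when the whole interval had to lie past 2-fold, 474 and 879 with a minimum of 50 counts per gene, and 4610 and 1709 with a minimum of 1 count. The higher genes were 45.3% of those called in the main setting, and 35.0% and 73.0% under these 2 minima. Under the other alternatives the higher count ran from 1022 to 1410 and the lower count from 1322 to 1574. Scaling by the median of gene ratios moved the median of all genes by 0.07 and made that share 49.7%. Of 360 alternative values of the 30 list medians, 306 stayed within the interval of the median gene, 51 moved outside it and 3 reversed. The reversed ones were all of the giant cell list, at 0.25 with 50 counts per gene, 0.08 with 1 count and 0.27 without genes sharing transcript ends. Of 2106 alternative values of 179 named genes, 2030 stayed within the gene's interval, 74 moved and 2 reversed, both for Dkk1: 2.04 without the deepest 5% of wells and 1.84 without its top well. Removing sequence-sharing genes, scaling without them and leaving out top wells were chosen after seeing the data. No paired analysis was possible because each group is 1 plate. The pTSC depth limits genes under 1.23 CPM, the level that 3 counts give.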
